A study of Mus musculus with 45 samples.

Results

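The comparison described here is that of MHCII- muscle macrophages at day 7 of a cardiotoxin injury, with a diphtheria toxin time of 24 h, between mice with and without Foxp3.DTR. It rests on 6 of the 45 arrays of the series, chosen by genotype, day, toxin time and subset in the sample titles. The first group, DTR+, held 3 samples from male C57Bl6 mice carrying Foxp3.DTR, a diphtheria toxin receptor under the Foxp3 promoter, through which diphtheria toxin (DT) removes regulatory T cells. The second group, DTR-, held 3 samples from male C57Bl6 mice without the receptor. Both groups were 8 weeks old, both carry the injury and the 24 h DT label, and both were sorted from muscle into TriZol as Ly6g- CD11b+ F4-80+ MHCII- cells. The labels do not say from which moment the 24 h are counted, give no dose, and do not say whether each replicate came from its own animal. A p-value here therefore refers to variation among samples, which may be technical. RNA was hybridised to Affymetrix Mouse Gene 1.0 ST arrays, and each value below is a log2 of the deposited intensity, with 1 probe set for each of 11074 genes tested.

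Regulatory T cells are known to restrain interferon-γ (IFN-γ) production by T cells and natural killer (NK) cells. IFN-γ binds the receptor pair Ifngr1 and Ifngr2, and signals through the kinases Jak1 and Jak2 to GAS elements in target promoters, and IRF1 is among the factors induced. The targets include guanylate-binding proteins (GBPs) and immunity-related GTPases (IRGs), chemokines that attract T cells, and the machinery of antigen presentation. In injured muscle, macrophages first clear debris and then divide and adopt a repair state.

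The labelled cell type was checked against macrophage genes. Adgre1, which encodes F4/80, lay between 12.56 and 13.04 in DTR+ arrays and between 12.85 and 12.91 in DTR- arrays. Cd68, a lysosomal glycoprotein of macrophages, lay between 13.43 and 13.53 on all 6 arrays. Foxp3 lay between 6.97 and 7.45 and Ifng between 6.77 and 7.18, below the level of 7.57 that a gene had to reach in at least 1 group mean to be tested, so the removal of regulatory T cells cannot be checked on these arrays. Of the T cell markers with a probe set, 5 of 13 (Cd3e, Cd3d, Cd3g, Cd247 and Cd8b1) were below that level on all 6 arrays, as were 10 of 11 NK cell and 10 of 13 neutrophil markers.

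DTR+ replicate 3 stood apart. It correlated at 0.933 and 0.946 with the other DTR+ arrays, which correlated at 0.994 with each other, and 491 genes were at least 1 log2 unit below the mean of those arrays, with 51 at least 1 unit above. Its median intensity of 203.7 was the highest of the 45 arrays. DTR- replicate 3 stood apart less, with correlations of 0.981 and 0.982 against 0.997 between the other DTR- arrays, and 24 genes below and 32 above. The residual SD was 0.305 in the DTR+ group and 0.164 in the DTR- group. Results are therefore given with and without these arrays where they turn on them. Over the 6 arrays of the comparison the residual SD was 0.2449, and over all 45 arrays it was 0.1935. Each standard error (SE) below comes from the limma fit over all 45 arrays and does not measure the spread of these 6 alone.

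Of all genes, 1 passed in limma at an adjusted p under 0.05 (0.00903% of 11074), and it was higher in DTR+ mice. It was BC023105, which RefSeq lists as a pseudogene and which lies beside Iigp1 in a cluster of interferon-inducible GTPase genes on chromosome 18. BC023105 lay at 7.95, 8.31 and 8.84 in DTR+ arrays and at 6.38, 6.71 and 5.05 in DTR- arrays. All 3 DTR+ arrays lay above the filter level and all 3 DTR- arrays below it, and the gene passed the filter only through DTR+ groups. A gene that enters the test in this way had to differ, so the call is given as a description. BC023105 rose by 2.32 ± 0.40 (log2 difference ± SE; limma adjusted p = 0.0197), and no fold ratio is given because the DTR- arrays lay below the filter level. The call was lost without DTR+ replicate 2 (adjusted p = 0.135), without DTR- replicate 3 (adjusted p = 0.542) and without both arrays numbered 3 (1.58, adjusted p = 0.696). It was also lost in a fit on the 6 arrays alone (adjusted p = 1) and on the 12 arrays of the 24 h set (adjusted p = 0.337), while the difference ranged from 1.82 to 2.65 over the arrays left out singly.

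At an unadjusted p under 0.05 there were 717 genes (6.47%), 189 higher (1.71%) and 528 lower (4.77%). Genes whose groups did not overlap numbered 316 on the higher side (2.85%) and 862 on the lower side (7.78%). In 608 of the 862, DTR+ replicate 3 was the lowest of the 6 arrays. Over all genes the median difference was -0.04, with 40.2% of genes above 0. A difference of 1 or more was reached by 6 genes (0.0542%), BC023105, Gbp4, Cxcl9, Iigp1, AA467197 and Ccl12. The chemokine gene Ccl12 lay at 10.02, 10.42 and 11.91 in DTR+ arrays and at 9.45, 9.82 and 10.06 in DTR- arrays. Its groups overlapped, and its highest value was in DTR+ replicate 3. A difference of -1 or less was reached by 1 gene (0.00903%), the translation factor gene Eif5a, which lay at 11.62, 11.59 and 8.54 in DTR+ arrays and at 11.82, 11.59 and 12.05 in DTR- arrays, so that its difference of -1.23 came with a low value in DTR+ replicate 3.

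**Figure D1:**
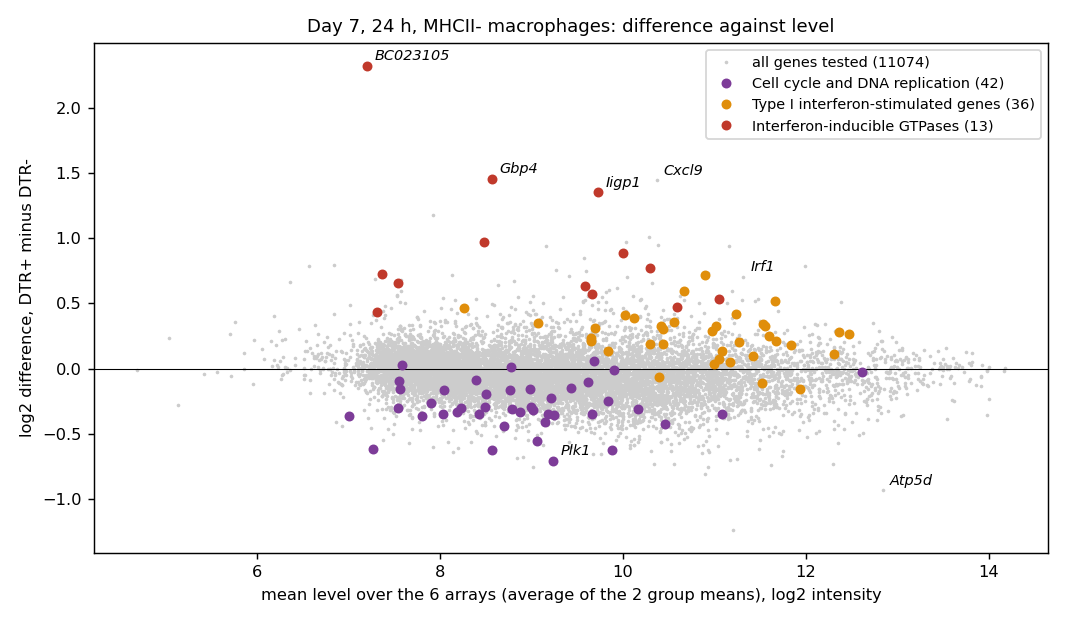
Log2 difference, DTR+ minus DTR- (vertical axis), against the mean level of each gene over the 6 MHCII- arrays in log2 intensity (horizontal axis), for 11074 genes. The 13 interferon-inducible GTPases (red) all lie above 0, with BC023105 at 2.32; 33 of 36 type I interferon-stimulated genes (orange) lie above 0 and 39 of 42 cell cycle genes (purple) below it.

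The interferon-inducible GTPases were the list with the largest median difference among the 18 pathway lists, whether all 6 arrays or 5 without DTR+ replicate 3 were used. GBPs and IRGs are GTPases that assemble on the vacuoles of intracellular pathogens and disrupt them. Of 22 genes in the list, 13 had a probe set with 1 symbol, and all 13 passed the filter; Gbp8, Gbp11 and BC023105 did so only through DTR+ groups. Of the 13, 1 passed the test and 13 were above 0, against 40.2% of all genes, with a median difference of 0.73. Groups did not overlap on the higher side for 5 of the 13, against 2.85% of all genes. The list was chosen with results of these data known, so its direction is a description. GBPs of a cluster are similar in sequence, and probe sets may share signal between them.

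Iigp1 (Irga6), the best known effector IRG, lay at 10.70, 10.70 and 9.81 in DTR+ arrays and at 9.48, 9.36 and 8.33 in DTR- arrays. The groups did not overlap, and the difference of 1.35 ± 0.28 did not pass (limma adjusted p = 0.0898). Gbp4 lay at 9.87, 9.91 and 8.13 in DTR+ arrays and at 7.66, 8.33 and 7.55 in DTR- arrays. DTR+ replicate 3 was below DTR- replicate 2, so the groups overlapped, and the difference was 1.45 ± 0.34 (limma adjusted p = 0.224).

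Gbp5, which promotes inflammasome assembly, lay at 9.31, 9.31 and 8.29 in DTR+ arrays and at 8.17, 8.16 and 7.68 in DTR- arrays, a difference of 0.97 ± 0.23 (limma adjusted p = 0.224). Gm12250 (Irgb10), an IRG that acts on bacterial membranes, lay at 10.88, 10.88 and 10.27 in DTR+ arrays and at 10.21, 10.02 and 9.49 in DTR- arrays. Irgm1, a regulatory IRG that keeps the effector IRGs off the cell's own membranes, lay at 11.25, 11.47 and 11.23 in DTR+ arrays and at 11.01, 10.89 and 10.46 in DTR- arrays. For all of these 3 genes the groups did not overlap, but DTR+ replicate 3 was the lowest of its group.

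The other members were Gm4951 at 0.89, Gbp8 at 0.73, Gbp2b at 0.66, Gbp3 at 0.63, Gbp9 at 0.57, Gbp7 at 0.47 and Gbp11 at 0.44. Along the genome 4 members, Gbp5, Gbp7, Gbp3 and Gbp2b, are neighbours on chromosome 3, and Gbp8, Gbp9, Gbp4 and Gbp11 lie in a second cluster on chromosome 5. DTR+ replicates 1 and 2 lay above all DTR- arrays for 13 of the 13 genes, as they did for 17.6% of all genes tested, and DTR+ replicate 3 did so for 5 of the 13. That array was the lowest of the DTR+ group for 12 of 13 members, and DTR- replicate 3 was the lowest of the DTR- group for 12 of 13.

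**Figure D2:**
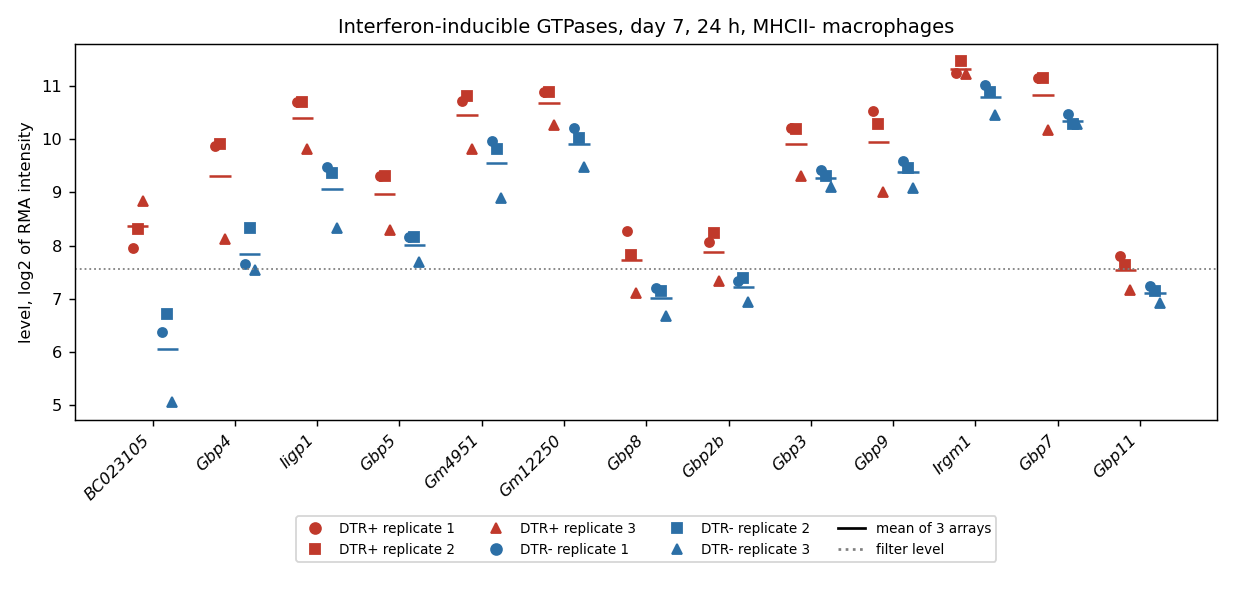
Levels of the 13 interferon-inducible GTPases in log2 intensity (vertical axis), 1 point per array, DTR+ in red left of DTR- in blue, with the mean of 3 arrays as a bar and the filter level of 7.57 dotted. DTR+ replicate 3 (red triangle) is the lowest DTR+ array for all genes but BC023105, where it is the highest.

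Without DTR+ replicate 3, 12 genes passed over all genes, 11 higher and 1 lower, in a fit where 2 DTR+ arrays faced 3 DTR- arrays. Of the 12, 8 were GTPases of the list: Gbp4 (2.04), Gbp5 (1.31), Iigp1 (1.65), Gbp8 (1.05), Gbp3 (0.93), Gbp9 (1.04), Gbp11 (0.62) and BC023105 (2.08). Of these 8, Gbp8, Gbp11 and BC023105 had entered the test only through DTR+ groups, which leaves 5. The others were AA467197, Stk39, Tapbpl and, on the lower side, Plcb4, a phospholipase C, at -0.62. AA467197 is the mouse Nmes1 gene; it lay at 8.95, 8.75 and 7.84 in DTR+ arrays and at 7.16, 7.08 and 7.78 in DTR- arrays. With both arrays numbered 3 left out, 2 genes passed, AA467197 and Gbp4, and the list's median was 0.87.

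Promoters of the GTPases are shown because this list had the largest median difference, and because interferon responses are known to run through GAS and ISRE elements. Of the 13 genes, 6 matched a RefSeq promoter by gene identifier (Gbp2b, Gbp3, Gbp5, Gbp7, Irgm1 and Gm12250). The windows are the 250 bases before the gene start in GRCm38.p6. The GAS motif searched was TTCNNNGAA, which reads alike on both strands, and the ISRE motif was a pair of GAAA with any 2 bases between them, or a pair of TTTC likewise on the other strand; in the windows printed, matches overlapped each other in Irgm1 and in no other. An ISRE match was found for 6 of the 6 genes and a GAS match for 3, counting a gene once over its windows, against 3.3% and 7.0% of the 8889 tested genes that matched. Of all 32851 RefSeq windows of that length, 2.98% held an ISRE and 7.02% a GAS match; a second window of Gbp3 held neither. The 3 matched members whose groups did not overlap, Gbp5, Gm12250 and Irgm1, are printed 5′ to 3′ with the motif matches in capitals, beside Irf1, the transcription factor described next. They lie at chr3:142496684-142496933 (plus strand), chr11:58183593-58183842 (plus), chr11:48871421-48871670 (minus) and chr11:53769764-53770013 (plus).
Gbp5: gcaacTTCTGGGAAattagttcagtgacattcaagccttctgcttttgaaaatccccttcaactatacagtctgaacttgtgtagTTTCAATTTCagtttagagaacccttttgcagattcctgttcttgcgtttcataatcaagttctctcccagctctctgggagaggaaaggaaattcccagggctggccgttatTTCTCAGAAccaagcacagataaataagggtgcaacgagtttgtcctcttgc
Gm12250: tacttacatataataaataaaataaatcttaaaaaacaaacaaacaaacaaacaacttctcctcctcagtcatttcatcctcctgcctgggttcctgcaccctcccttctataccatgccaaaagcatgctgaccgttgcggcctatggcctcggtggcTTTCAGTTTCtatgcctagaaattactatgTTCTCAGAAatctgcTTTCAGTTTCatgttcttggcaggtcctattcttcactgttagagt
Irgm1: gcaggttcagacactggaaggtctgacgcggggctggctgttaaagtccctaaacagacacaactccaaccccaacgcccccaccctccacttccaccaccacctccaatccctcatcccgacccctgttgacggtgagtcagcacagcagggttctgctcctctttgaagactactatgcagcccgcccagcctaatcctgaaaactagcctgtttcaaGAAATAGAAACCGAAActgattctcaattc
Irf1: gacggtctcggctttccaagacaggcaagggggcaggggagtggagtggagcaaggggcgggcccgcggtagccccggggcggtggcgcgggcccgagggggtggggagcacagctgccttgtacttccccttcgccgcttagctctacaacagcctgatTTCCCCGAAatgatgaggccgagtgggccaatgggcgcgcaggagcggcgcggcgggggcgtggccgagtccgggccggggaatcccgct
Gbp5 held GAS matches 245 and 52 bases before its start and an ISRE match at 165. Gm12250 held ISRE matches at 91 and 46 with a GAS match at 61 between them. Irgm1 held 2 ISRE matches that overlap each other, at 30 and 24 bases before the start. Irf1 held a GAS match at 90 and no ISRE match in this window; a second RefSeq window of Irf1, at chr11:53770223-53770472, held neither. A match describes the letters of the window and not a bound site.

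The list of IFN-γ receptor and signalling genes held 21 tested genes, among them the induced factors Irf1, Batf2 and Nlrc5. Of the 21, 0 passed in limma. At an unadjusted p under 0.05, 3 were higher and 0 lower, against 1.71% and 4.77% of all genes. Of the 21, 13 were above 0, and the median was 0.05. Without DTR+ replicate 3, 19 were above 0 and the median was 0.15. Ifngr1, the ligand-binding chain, lay at 12.29, 12.34 and 11.71 in DTR+ arrays and at 12.19, 12.15 and 12.00 in DTR- arrays, a difference of -0.00 ± 0.11. DTR+ replicates 1 and 2 lay above all DTR- arrays for Ifngr1 and DTR+ replicate 3 below them. Ifngr2, the accessory chain, differed by -0.12, Jak1 by -0.13 and Jak2 by -0.03.

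Among transcription factors of the list, Irf1, Batf2 and Nlrc5 had groups that did not overlap, while Ciita and Irf8 overlapped, and none of them passed. Irf1 lay at 11.81, 11.92 and 11.27 in DTR+ arrays and at 11.19, 11.19 and 10.51 in DTR- arrays. Its difference of 0.70 ± 0.20 had a limma adjusted p of 0.577. Batf2, a leucine zipper partner of IRF1 in macrophages, lay at 8.64, 8.83 and 8.98 in DTR+ arrays and at 8.45, 8.41 and 8.10 in DTR- arrays, at 0.50 ± 0.11 (limma adjusted p = 0.0977). DTR+ replicate 3 was the highest array for Batf2 and the lowest of its group for Irf1. Nlrc5, which activates class I genes, differed by 0.25 and Ciita, which activates class II genes, by 0.26. Socs1, the feedback inhibitor of the pathway, lay at 8.88, 8.89 and 8.89 in DTR+ arrays and at 8.75, 8.80 and 9.04 in DTR- arrays, within the spread of the DTR- group.

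Among 26 tested IFN-γ effectors and chemokines 0 passed in limma. At an unadjusted p under 0.05, 8 were higher and 0 lower, against 1.71% and 4.77% of all genes. Of the 26, 22 were above 0, with a median of 0.18, and 6 were higher without overlap, against 2.85% of all genes. Cxcl9, a ligand of the T cell receptor CXCR3, lay at 10.79, 10.94 and 11.54 in DTR+ arrays and at 9.96, 10.15 and 8.83 in DTR- arrays, with the lowest value in DTR- replicate 3. Its difference was 1.44 ± 0.35 (limma adjusted p = 0.293). Cxcl10, another CXCR3 ligand, lay at 12.60, 12.62 and 13.60 in DTR+ arrays and at 12.35, 12.64 and 12.97 in DTR- arrays, with overlapping groups. Acod1, which makes itaconate, lay at 10.05, 10.06 and 9.80 in DTR+ arrays and at 9.04, 9.09 and 9.52 in DTR- arrays, without overlap. The Fc receptor gene Fcgr4 (0.52), the inflammatory caspase gene Casp4 (0.43), Xaf1 (0.51) and the long noncoding RNA AW112010 (0.97) were the others without overlap. Nos2, the inducible nitric oxide synthase, lay between 6.51 and 7.03 on all 6 arrays, below the filter level.

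Genes of antigen presentation were listed by class. Of 18 tested class I genes 0 passed in limma, and 15 were above 0 with a median of 0.24. At an unadjusted p under 0.05, 6 were higher and 2 lower, against 1.71% and 4.77% of all genes. The proteasome activator Psme1 lay at 11.02, 11.03 and 10.97 in DTR+ arrays and at 10.60, 10.67 and 10.68 in DTR- arrays, a difference of 0.36 ± 0.10 (limma adjusted p = 0.577). The immunoproteasome subunit Psmb10 lay at 11.57, 11.74 and 11.91 in DTR+ arrays and at 11.30, 11.26 and 11.06 in DTR- arrays. Tap1, the peptide transporter, lay at 10.94, 10.95 and 10.04 in DTR+ arrays and at 10.48, 10.45 and 10.41 in DTR- arrays, where DTR+ replicate 3 was the lowest of the 6. B2m, the light chain, differed by 0.08 ± 0.06. Without DTR+ replicate 3 the list's median was 0.35, and 14 of 18 genes had DTR+ arrays all above DTR- arrays, against 17.6% of all genes with that array left out.

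Of 15 class II genes 0 passed in limma, 11 were above 0, and the median was 0.05. At an unadjusted p under 0.05 there were 0, against 6.47% of all genes. Without DTR+ replicate 3, 12 were above 0 and 7 had groups that did not overlap on the higher side, against 17.6% of all genes. H2-Ab1 lay at 12.45, 12.35 and 12.32 in DTR+ arrays and at 12.19, 12.13 and 12.12 in DTR- arrays, a separation of 0.22 ± 0.13, while H2-Aa overlapped with a difference of -0.06. Both chains gave a signal in cells gated as MHCII-.

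Type I interferon-stimulated genes are antiviral genes induced mostly through ISRE elements. Of 36 tested 0 passed in limma. At an unadjusted p under 0.05, 8 were higher and 0 lower, against 1.71% and 4.77% of all genes. Of the 36, 33 were above 0, with a median of 0.26. DTR+ arrays lay all above DTR- arrays for 14 of the 36, against 2.85% of all genes. Zbp1, a sensor of Z-form nucleic acids, lay at 11.12, 11.25 and 11.40 in DTR+ arrays and at 10.58, 10.55 and 10.49 in DTR- arrays (0.72 ± 0.22, limma adjusted p = 0.718). The tetherin gene Bst2 differed by 0.41 and Oas1a, which activates RNase L, by 0.39, without overlap. Irf7, the amplifier of type I interferon, differed by -0.11 and Siglec1 by -0.15.

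Cell cycle and DNA replication genes lay on the other side. Of 42 tested 0 passed in limma. At an unadjusted p under 0.05, 0 were higher and 12 lower, against 1.71% and 4.77% of all genes. Of the 42, 39 were below 0, and the median was -0.31, against -0.04 over all genes. DTR+ arrays lay all below DTR- arrays for 20 of the 42, against 7.78% of all genes. Plk1, a kinase of mitotic entry, lay at 8.95, 8.69 and 9.02 in DTR+ arrays and at 9.47, 9.57 and 9.74 in DTR- arrays, a difference of -0.71 ± 0.26 (limma adjusted p = 0.718). DTR+ replicate 3 was the highest DTR+ array for Plk1, so the separation did not come from it. Mki67, the proliferation antigen Ki-67, lay at 9.82, 9.60 and 9.29 in DTR+ arrays and at 10.29, 10.28 and 10.03 in DTR- arrays. The mitotic kinesin gene Kif20a lay at 8.36, 8.13 and 8.29 in DTR+ arrays and at 8.87, 9.06 and 8.73 in DTR- arrays.

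Replication genes lay the same way. Rrm2, the small subunit of ribonucleotide reductase, lay at 8.90, 8.90 and 8.56 in DTR+ arrays and at 9.37, 9.20 and 9.45 in DTR- arrays. The helicase genes Mcm2 (-0.35) and Mcm5 (-0.36) and the thymidine kinase gene Tk1 (-0.33) had groups that did not overlap, whereas Pcna (-0.03) and Mcm6 (0.06) overlapped. Averaged over the 42 genes, the arrays lay at 8.80, 8.72 and 8.73 in DTR+ and at 9.07, 9.05 and 8.98 in DTR-. Leaving out DTR+ replicate 3 gave a median of -0.26, and leaving out both arrays numbered 3 gave -0.25. In bulk samples fewer dividing cells and less of these RNAs per cell cannot be told apart.

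**Figure D3:**
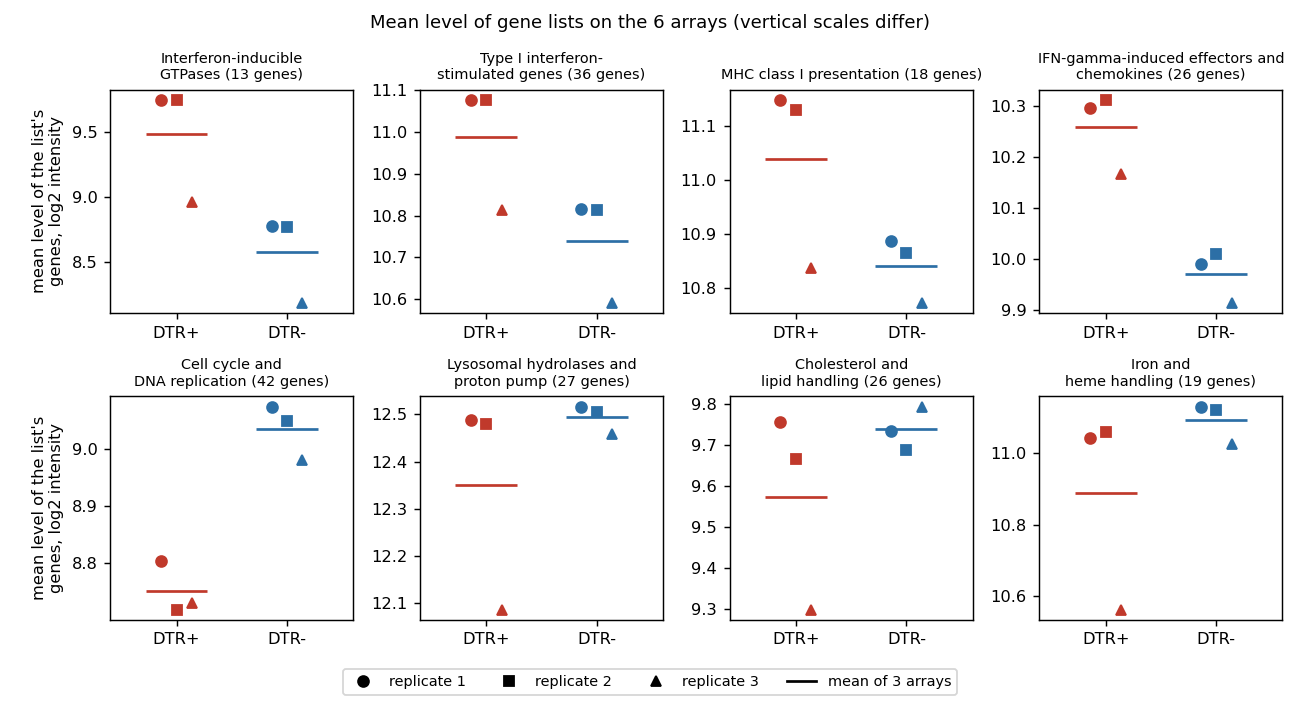
Mean level of 8 gene lists in log2 intensity (vertical axes, each with its own scale) on the 3 DTR+ arrays (red) and 3 DTR- arrays (blue), with the mean of 3 arrays as a bar. Cell cycle genes separate the groups on all arrays; in lysosomal, cholesterol and iron genes DTR+ replicate 3 (triangle) lies below the other 5.

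In several metabolic and degradative lists DTR+ replicate 3 lay below the other 5 arrays. Lysosomal genes averaged 12.49, 12.48 and 12.09 in DTR+ arrays and 12.52, 12.51 and 12.46 in DTR- arrays; the median over 27 genes was -0.15, and -0.02 without DTR+ replicate 3. Cholesterol and lipid genes had a median of -0.17 with all arrays and -0.03 without it, and iron and heme genes -0.20 and -0.04. Slc40a1, the iron exporter ferroportin, lay at 11.08, 11.02 and 9.38 in DTR+ arrays and at 11.46, 11.33 and 11.13 in DTR- arrays. Atp5d, a subunit of ATP synthase, lay at 13.07, 13.10 and 10.94 in DTR+ arrays and at 13.23, 13.26 and 13.43 in DTR- arrays. Both genes had groups that did not overlap, with most of the difference in 1 array. None of these lists had a member that passed in limma. Lower at an unadjusted p under 0.05 were 6 of 27 lysosomal, 3 of 26 cholesterol and 5 of 19 iron genes. The share over all genes was 4.77%.

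**Figure D4:**
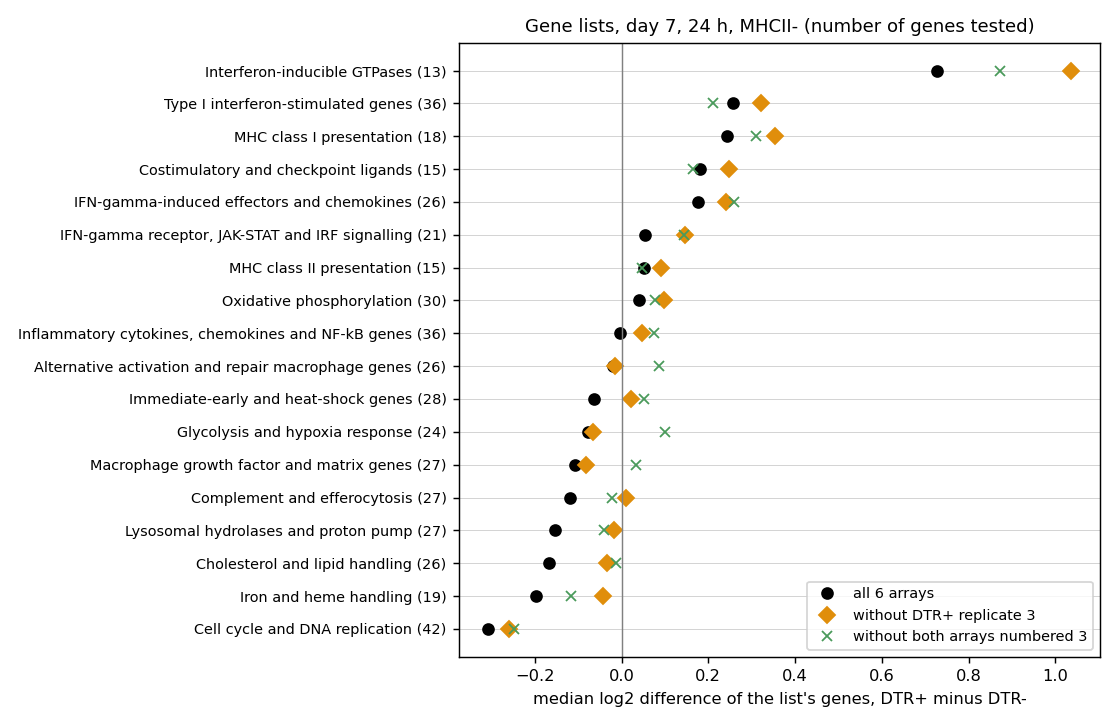
Median log2 difference, DTR+ minus DTR- (horizontal axis), of 18 gene lists with the number of genes tested, from all 6 arrays (black), without DTR+ replicate 3 (orange) and without both arrays numbered 3 (green). The GTPase median is 0.73, 1.04 and 0.87, the cell cycle median -0.31, -0.26 and -0.25, and the lysosomal median -0.15, -0.02 and -0.04.

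Other genes lay lower in DTR+ arrays by a difference that was not limited to that array. Treml4, a receptor that enhances Toll-like receptor signalling, lay at 8.59, 8.58 and 8.56 in DTR+ arrays and at 9.24, 9.20 and 9.31 in DTR- arrays, a difference of -0.68 ± 0.21 with little spread in either group (limma adjusted p = 0.718). Mfge8, which bridges apoptotic cells to phagocytes, lay at 11.11, 11.03 and 10.33 in DTR+ arrays and at 11.63, 11.78 and 11.17 in DTR- arrays. Mmp9, the gelatinase that breaks down matrix, lay at 9.90, 10.41 and 10.29 in DTR+ arrays and at 10.48, 10.70 and 11.59 in DTR- arrays. Its highest value was in DTR- replicate 3, which also stood apart, and 10.41 lay close to 10.48. Pdgfb, a growth factor for mesenchymal cells, differed by -0.63 without overlap.

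On the higher side outside the interferon lists, Stk39, a kinase that regulates ion transport, lay at 8.76, 8.44 and 8.28 in DTR+ arrays and at 7.87, 7.80 and 7.65 in DTR- arrays (0.72 ± 0.15, limma adjusted p = 0.0898). Il15ra, the chain that presents interleukin-15, lay at 8.44, 8.62 and 8.92 in DTR+ arrays and at 8.11, 8.16 and 8.11 in DTR- arrays, at 0.54 ± 0.11 (limma adjusted p = 0.0898). It was chosen after its values were seen. Retnla, a marker of alternative activation, lay at 12.42, 12.42 and 12.32 in DTR+ arrays and at 12.06, 11.94 and 10.80 in DTR- arrays. Arg1, another such marker, lay at 10.08, 10.31 and 8.49 in DTR+ arrays and at 8.28, 8.13 and 9.66 in DTR- arrays, where each array numbered 3 took a value near the other group. Over the 26 alternative activation genes the median was -0.02, and over the 36 inflammatory and NF-kB genes it was -0.00; Il1b differed by 0.08 ± 0.16 and Il10 by 0.05 ± 0.23.

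Markers of other cells moved with the groups in places, and their part in the results was not tested. Plac8, a monocyte gene, lay at 10.50, 10.80 and 11.26 in DTR+ arrays and at 9.72, 9.67 and 10.33 in DTR- arrays, and Ms4a4c also separated the groups. The 12 monocyte genes together summed to intensities of 30575 to 32373 in DTR+ arrays and 26653 to 39531 in DTR- arrays. On all 6 arrays, 8 of these 12 were above 0, at a median of 0.10. This count turned on DTR- replicate 3. Dropping that array put 12 of 12 above 0, at a median of 0.29. Of these, 7 were then higher with no overlap, against 5.53% of all genes. Dropping DTR+ replicate 3 instead kept 8 of 12 above 0, at 0.08. With both arrays numbered 3 dropped, 11 of 12 lay above 0, at 0.38. Among the 16 resident macrophage genes, 11 were above 0 on all 6 arrays, at a median of 0.07. Without DTR+ replicate 3, 14 of the 16 were above 0, at 0.27. Of the 16, 11 were then higher with no overlap, against 17.6% of all genes. Without DTR- replicate 3, 8 of the 16 were above 0, at 0.00. T cell markers summed to 2701 to 2963 in DTR+ arrays and 3180 to 3484 in DTR- arrays, a sum in which Cd4 (-0.66, without overlap) and Cd28 (-0.34, overlapping) were the largest terms. Of the 7 T cell markers tested 4 were above 0, with a median of 0.03. Dendritic cell markers summed to 3624 to 4603 in DTR+ arrays and 3203 to 3255 in DTR- arrays, with 8 of 10 tested above 0. Cd209a (0.52) and Bst2 (0.41) were without overlap and were the largest terms. Cd209a is also among the listed resident macrophage genes, and Bst2 among the type I interferon-stimulated genes. Of 13 with a probe set, 6 (Flt3, Xcr1, Clec9a, Itgae, Dpp4 and Ccr9) were below the filter level on all 6 arrays. NK cell markers summed to 646.8 to 863.9 in DTR+ arrays and 644.9 to 674.2 in DTR- arrays; Klrk1, an activating receptor, separated the groups at levels of 5.65 to 6.91, all below the filter level, and Klrd1, the other NK marker tested, overlapped at -0.04. Fibroblast markers summed to 5548 to 6085 in DTR+ arrays and 4471 to 5979 in DTR- arrays. With every array kept, 12 of 12 tested were above 0, at a median of 0.11, but all 12 overlapped between the groups. The number above 0 fell to 10 once the DTR+ array numbered 3 was removed. It fell to 9 if the DTR- array of that number was removed instead. Removal of both left 8 of 12 above 0, at 0.03.

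The same genotypes were compared with 2 DTR+ and 4 DTR- arrays of MHCII+ macrophages at 24 h, and with 3 DTR+ and 4 DTR- arrays of MHCII- macrophages at 8 h. The 8 h mice were 12 weeks old and their gate also excluded SiglecF+ cells, so toxin time, age and gate cannot be told apart. For the MHCII+ arrays the titles were followed, since their marker field says MHCII- as well. No gene passed for a difference of the genotype effect between the subsets at 24 h (0%; limma, 1012 genes or 9.14% at an unadjusted p under 0.05), nor between 24 h and 8 h in MHCII- macrophages (0%; 538 genes or 4.86%).

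The GTPases lay higher in DTR+ arrays in both subsets at 24 h. Their median difference was 0.73 in MHCII- and 0.92 in MHCII+ macrophages at 24 h (13 of 13 above 0 in each), and 0.03 at 8 h (8 of 13). Gbp8, Gbp11 and BC023105 are among the 13 and passed the filter only through DTR+ groups. Their part in these counts, and the values of BC023105 below, are therefore a description. The share of all genes above 0 was 59.4% in the MHCII+ set and 51.1% in the 8 h set. BC023105 lay at 8.27 and 8.13 in the DTR+ and at 6.87, 6.44, 6.48 and 5.74 in the DTR- arrays of MHCII+ cells. In the 8 h set it lay at 5.99, 5.29 and 5.74 in DTR+ arrays and at 6.57, 5.36, 5.50 and 4.75 in DTR- arrays, below the filter level throughout. The difference between the 24 h and 8 h effects was 2.19 ± 0.55 for BC023105 and 1.72 ± 0.46 for Gbp4, neither of which passed (limma adjusted p = 0.841 for both). Iigp1 lay at 10.54 and 10.18 in DTR+ and between 8.49 and 9.23 in DTR- arrays of MHCII+ cells, and between 8.44 and 8.90 in DTR+ and 8.12 and 8.93 in DTR- arrays at 8 h. Both subsets at 24 h thus had separate groups and the 8 h groups overlapped.

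For some genes the genotype difference was of unlike size in the MHCII- and MHCII+ cells, with no call on the difference between them. Ccl17, a chemokine for type 2 T cells, lay at 6.96, 7.06 and 7.81 in DTR+ and at 7.54, 8.01 and 7.08 in DTR- arrays of MHCII- cells, against 11.46 and 10.40 in DTR+ and 9.20 to 9.55 in DTR- arrays of MHCII+ cells. The effects differed by -1.76 ± 0.35, with an unadjusted p of 1.99e-05 and an adjusted p of 0.221 in limma. Socs1 differed by 0.02 in MHCII- and by 0.55 in MHCII+ macrophages, and Batf2 by 0.50 and 0.79. The cell cycle median was -0.31 in MHCII- macrophages, -0.07 in MHCII+ macrophages and -0.09 in the 8 h set; Plk1 differed by -0.71, -0.11 and -0.20. Il10 overlapped between genotypes in both 24 h subsets, and at 8 h lay at 11.19, 11.05 and 10.84 in DTR+ arrays and at 9.92, 9.92, 9.26 and 10.38 in DTR- arrays. The difference of the 24 h and 8 h effects was not called for any of these genes.

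**Figure D5:**
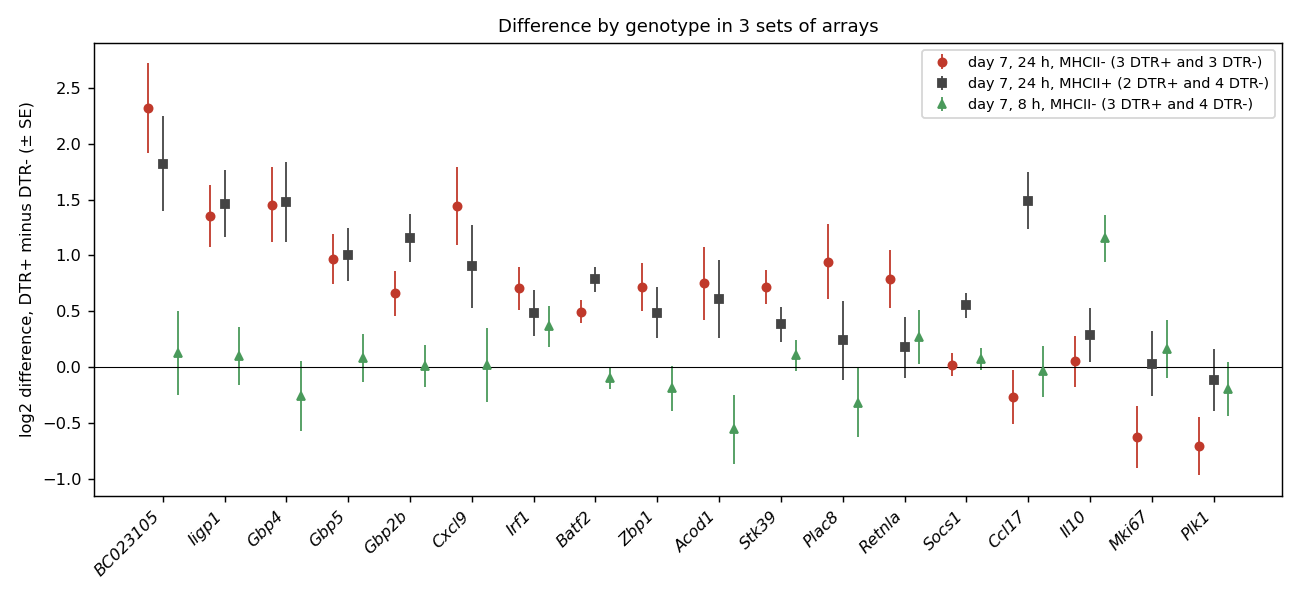
Log2 difference, DTR+ minus DTR-, with its SE (vertical axis) for 18 genes in MHCII- macrophages at 24 h (red), MHCII+ macrophages at 24 h (black) and MHCII- macrophages at 8 h (green). BC023105 is at 2.32, 1.82 and 0.13, Ccl17 at -0.27, 1.49 and -0.04, and Il10 at 0.05, 0.29 and 1.15.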

How the data were processed

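Per the submitters' processing notes, the authors used Affymetrix Power Tools and RMA; their versions, and the genome build, are not named there. The deposited values are linear intensities, 1 per probe set and array, and log2 was taken of the deposited intensity here. Of 24922 probe sets, 21425 named 1 gene, 1399 several and 2098 none in the platform table; of probe sets sharing a gene the one with the highest mean was kept, leaving 19752 genes, of which 11074 reached log2 7.57 (an intensity of 189.5, the median of all values) in at least 1 group mean. RefSeq symbols matched 19677 genes. No detection call was used. Precision is limited by the number of arrays.

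limma 3.58.1 (R 4.3.3) fitted 18 group means over 45 arrays with trended eBayes and Benjamini-Hochberg adjustment over 11074 genes. An exact permutation test of 3 against 3 arrays cannot go below a two-sided p of 0.1, so none is given. The same-numbered DTR+ and DTR- arrays had deviations from their group means that correlated at 0.28, 0.09 and 0.20. Those of unlike number correlated between -0.34 and 0.35. These values do not settle whether the numbers are pairs, and the main fit did not take them as pairs. Alternatives covered scaling, filters, log offset, probe set choice, variance model, the arrays in the fit, the replicate block and leaving out arrays. The fit was also run on simulated data in which each gene had the same spread in all groups. That setting leaves out the wider spread of the DTR+ group, so it does not show how the fit behaves on these arrays.

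The comparison, its members and the 33 gene lists were chosen with earlier results of these data known. Named genes were those called, the largest differences among genes without overlap (up to 12 each way), up to 4 of each list by p, leading markers of other cells and a fixed set. Il15ra, AA467197, Ccl12, Eif5a, Klrk1 and list members beyond that rule were chosen after their values were seen. Probe sets with several symbols or none were left out of the comparisons, and the 2 of them called are given among the additional observations. Figures were drawn with matplotlib.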

Additional observations from a re-analysis of the deposited data

Results flagged for a closer look

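In groups of 4 samples, a sample whose gap to its nearest neighbour took most of the group's range was noted for 4 of 36 sets of values (18 genes in 2 groups), where chance gives about 1 in 20. Both groups of that size were DTR- groups, so no DTR+ group was examined. Batf2 was at 8.18 in replicate 5 of the 8 h DTR- MHCII- group, with the other 3 arrays between 8.37 and 8.39. Ccl17 was at 9.2 in replicate 4 of the 24 h DTR- MHCII+ group, with the others between 9.49 and 9.55. Plac8 was at 10.07 in replicate 1 of that group, with the others between 9.15 and 9.26. Plk1 was at 8.11 in its replicate 3, with the others between 8.59 and 8.66.

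Outside the single-symbol genes, 1 of 1020 tested probe sets with no gene listed and 1 of 840 with several symbols were called in the same fit. Probe set 10398039, with no gene listed, lay at 8.84, 8.89 and 8.27 in DTR+ arrays and at 7.59, 7.60 and 6.68 in DTR- arrays, a log2 difference of 1.38 (limma adjusted p = 0.0092). Probe set 10496592, with the symbols Gbp2 and Gbp2b, lay at 12.13, 12.39 and 11.54 in DTR+ arrays and at 10.85, 10.93 and 10.10 in DTR- arrays. Its difference was 1.4 (limma adjusted p = 0.0477). In both, DTR+ arrays lay above DTR- arrays without overlap.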

How the results depend on the processing

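The number of genes called was 1 in the comparison of DTR+ with DTR- MHCII- macrophages at 24 h. It was 2 under quantile normalization, median centring or a log offset of 50, and 0 under a stricter filter (which did not test BC023105), on the 6 arrays alone or on the 12 arrays of the 24 h set (BC023105 adjusted p = 0.337). With the replicate number as a block, whose pairing the correlations do not settle, 6 genes were called. Leaving out each array gave 0 to 12 calls: 12 without DTR+ replicate 3, 2 when DTR+ replicate 1 was dropped, and 0 when either DTR+ replicate 2 or else DTR- replicate 3 was dropped. Without both arrays numbered 3, an alternative chosen after seeing the data, there were 2 calls, and the difference of BC023105 was 1.58 (adjusted p = 0.696). Array quality weights gave 4157 calls, in an estimate that did not converge, with a weight of 31.2 for DTR+ replicate 2 and 0.0301 for DTR+ replicate 3. Gene-by-gene weights, chosen after seeing the data, gave 880. Under array quality weights Adgre1 reversed to 0.0967 and Ifngr1 to 0.182. Genes without overlap numbered 515 higher with no filter, and 472 to 1954 higher and 1092 to 1985 lower over the arrays left out singly. Without both arrays numbered 3 they numbered 2633 higher and 3050 lower. Genes at an unadjusted p under 0.05 were 306 higher and 524 lower under quantile normalization, against 189 and 528. The cell cycle median ranged from -0.356 to -0.2585 over the arrays left out, and was -0.2489 without both arrays numbered 3; the GTPase median ranged from 0.56 to 1.04. For the difference between subsets, calls were 5 under array quality weights and 0 to 1 over the arrays left out, with 1 call when replicate 3 of either MHCII- group was left out, or replicate 5 of the DTR+ or replicate 2 of the DTR- MHCII+ arrays. For the difference between 24 h and 8 h, calls were 4249 under array quality weights, 2139 under gene-by-gene weights and 0 to 12 over the arrays left out, with 12 when the 8 h DTR- replicate 5 was dropped and 1 when the DTR+ replicate 3 of 24 h was dropped. Apart from fewer arrays or genes, the cause of these shifts was not tested.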
